A study of Mus musculus with 4 samples.

Results

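Retinoic acid metabolism and its nuclear receptors were followed through 7 genes, chosen by name: Aldh1a1, Cyp26b1, Rara, Rarb, Rarg, Rxra and Rxrb. All 7 were found among the 20062 genes of each deposited table. The study isolated hematopoietic stem cells (HSC) at steady state from marrow of Gfp-Lc3 mice and gives 4 samples, 2 labelled young and 2 labelled old. Every mouse carried this reporter of autophagosomes, a green fluorescent protein joined to LC3, so no sample lacks it, and neither an age in months nor the reporter's promoter is stated in the labels. The files are the authors' own comparisons of cells in 7 clusters, c1 to c7: each cluster against all cells outside it, and c1 against c2. Their columns name no sample and no age, and young against old was not analysed here.

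Retinoic acid is made from vitamin A: retinol is oxidised to retinaldehyde, and retinaldehyde dehydrogenases such as ALDH1A1 turn that into retinoic acid. CYP26 enzymes hydroxylate the acid and so remove it. It acts through the receptors RARα, RARβ and RARγ, which bind DNA paired with an RXR, and in mouse HSC this signalling is known for its part in keeping cells dormant.

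As read from their values, the p-values of the tables rest on single cells. A gene seen in 1 cell gives a p-value that depends only on the number of cells, and such genes returned 9585 cells in all. The 2 main clusters had 3839 (c1) and 3225 (c2) cells, followed by c3 with 1193, c4 with 1010, c5 with 172, c6 with 109 and c7 with 37. The values followed the test with overestimated variance of Scanpy, in which each cell counts as a replicate. A call at an adjusted p under 0.05 therefore describes these cells, not animals, and since the clusters may have been drawn from the same expression values, it is no independent test. The depth per cell is unknown. Stem cell markers were called higher for 5 of 7 in c1 and 6 of 7 in c2, and all 7 were called lower in c5 and in c6. Clusters c5 to c7 held 318 cells, or 3.32%. In c5, markers of granulocyte-monocyte progenitors (4 of 5), neutrophils (5 of 5) and dividing cells (4 of 5) were called higher, with 1 of 4 stromal markers. In c6, neutrophil markers (5 of 5) and 1 of 5 granulocyte-monocyte progenitor markers were called higher, and in c7 B-lineage markers (4 of 5) were. Megakaryocyte markers were called higher for 4 of 4 in both c3 and c4, and erythroid markers for 5 of 5 in c3 and 3 of 5 in c4. The summed level of stromal markers ran from 0.0486 to 0.196 per 10,000 over the 7 clusters. That of endothelial markers ran from at most 0.0194 in c7, where all 4 were at the deposited limit of -4, to 0.460.

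One sequence is shown because it holds the pathway's own response element: a promoter of Rarb, a gene well known to be induced by retinoic acid. The window is RefSeq sequence on GRCm38.p6, chr14:16575427-16575726, minus strand, 300 bases from 250 before the start site, written 5′ to 3′. It lies inside the annotated span of the gene, 16430839 to 16819156, and not at its upstream end. Which of the gene's 7 annotated transcripts gave its values is not known. The capitals mark a direct repeat of a receptor half-site spaced by 5 bases, at bases -53 to -37 relative to the start site.
Rarb promoter: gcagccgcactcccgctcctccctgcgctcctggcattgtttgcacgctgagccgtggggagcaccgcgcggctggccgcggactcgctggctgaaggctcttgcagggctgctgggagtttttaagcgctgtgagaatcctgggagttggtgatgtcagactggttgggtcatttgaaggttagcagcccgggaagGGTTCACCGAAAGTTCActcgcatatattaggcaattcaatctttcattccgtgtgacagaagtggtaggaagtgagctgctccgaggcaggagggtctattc
Promoter windows were searched on both strands for direct repeats of receptor half-sites, in any pairing, at spacings of 1, 2 and 5. A half-site was the canonical AGGTCA, the variant GGGTCA, or the variants GGTTCA and AGTTCA, which make up the Rarb element above. Of 32851 mouse promoter windows of the same length, 193 (0.588%) held such a repeat, and 32 (0.0974%) held one at a spacing of 5. Among the 14 windows of the 7 genes, that of Rarb alone held any such repeat. Both half-sites of its element and its spacing were among those searched, so the Rarb match was fixed by that choice. It is not to be weighed against the share over all windows. Of 66 windows from the other pathway genes listed, those of Bco1 and Cyp26a1 did, the latter at a spacing of 5 on the strand opposite the gene, with the element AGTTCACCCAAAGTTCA read 5′ to 3′ on that strand. A match describes these letters only, and it does not show that a receptor is bound there.

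RNA of Aldh1a1, which encodes an enzyme that makes retinoic acid, was highest in c1. Aldh1a1 (chromosome 19, 20492715 to 20643465, plus strand, GRCm38, protein coding) had a rebuilt level of 1.12 per 10,000 in c1 and 0.233 in c2. It stood at 0.556 in c3, 0.725 in c4 and 0.307 in c5, and at no more than 0.0422 in c6 and 0.0419 in c7. These levels estimate the mean over the cells of a cluster, in values scaled to 10,000 per cell. They were rebuilt from the deposited overall mean, the fold change and the estimated share of cells. The fold change was taken as a ratio of such means, so the levels are approximate if it was computed from log values. Cluster c1 was thus the highest, and c2 was below c3 and c4, although c1 and c2 both carried the stem cell markers. By these levels c1 held 67.1% of the Aldh1a1 signal with 40.1% of the cells. The log2 fold change of c1 over c2 in the authors' deposited table was 2.31, with an adjusted p listed as 0. Of 1556 genes within 0.5 log2 units of its mean expression, 3 had a higher fold change there. Against the rest it was 1.67 in c1 and -1.94 in c2 in the authors' deposited tables (adjusted p listed as 0 and as 2.50e-246). Cluster c4 was not called, at 0.13 in the authors' deposited table (adjusted p 0.254), while c3 at -0.30 and c5 at -1.14 were called lower.

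Cyp26b1, which hydroxylates and clears retinoic acid, was also highest in c1, but its order over the other clusters differed. The gene lies on chromosome 6 from 84571414 to 84593908 (minus strand). Its level was 0.199 per 10,000 in c1, 0.110 in c2, 0.0379 in c3, 0.0193 in c4 and 0.0801 in c5, and at most 0.00788 in c6 and 0.00783 in c7. The step from c1 to c4 was 10.3-fold, against a step from c1 to c2 of 1.84-fold in the direct comparison. Against the rest, the log2 fold change in the authors' deposited tables was 1.43 in c1 (adjusted p 1.14e-30), -1.85 in c3 (1.80e-10) and -2.82 in c4 (1.14e-13). Cluster c2 was not called, at -0.27 in the authors' deposited table (adjusted p 0.107), and c1 over c2 was at 0.88 (8.13e-14). RNA of both Aldh1a1 and Cyp26b1 was thus called higher in c1. In c4 Cyp26b1 was called lower and Aldh1a1 was not called, a difference between the genes that was not tested.

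**Figure D1:**
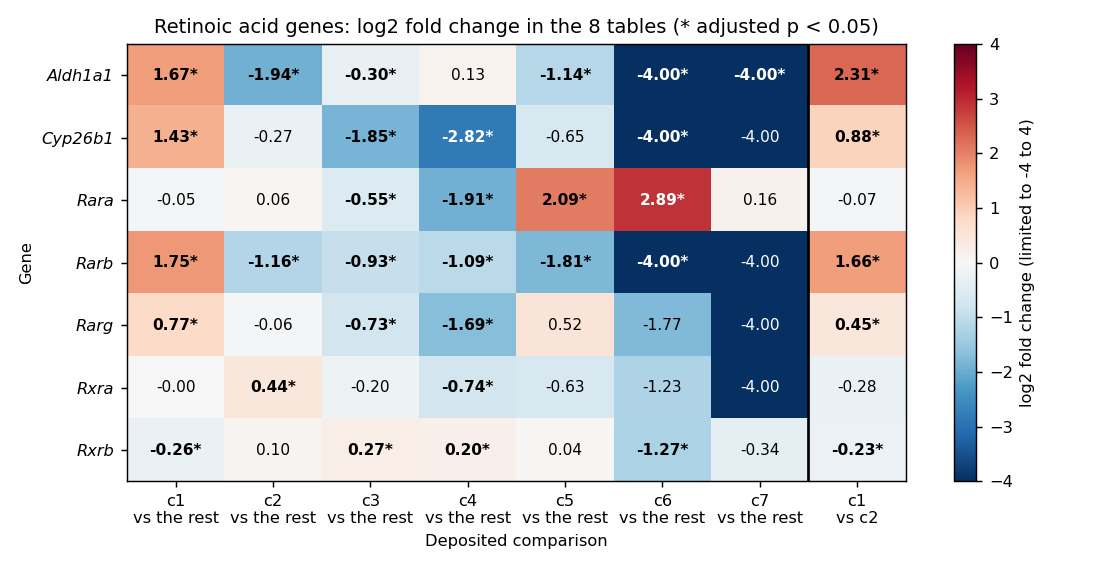
Log2 fold change of the 7 retinoic acid genes (rows) in the 8 deposited tables (columns), with the value in each cell, red for higher and blue for lower. Values in bold with an asterisk had an adjusted p under 0.05, and values at -4 are at the deposited limit. Aldh1a1, Cyp26b1, Rarb and Rarg are red in c1, and Rara is red in c5 and c6.

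Of the 3 retinoic acid receptors, Rarb differed most between c1 and c2. Rarb encodes RARβ and lies on chromosome 14 from 16430839 to 16819156 (minus strand). Its level was 0.184 per 10,000 in c1, against 0.0593 in c2, 0.0600 in c3, 0.0536 in c4 and 0.0312 in c5, with at most 0.00681 in c6 and 0.00676 in c7. Clusters c2, c3 and c4 were close to one another, and c1 stood apart from all of them. For c1 over c2 the log2 fold change in the authors' deposited table was 1.66 (adjusted p 9.48e-58), and 29 of 2191 genes of like expression had a higher one. Against the rest, the authors' deposited tables had Rarb at 1.75 in c1 (adjusted p 2.39e-64) and called it lower in c2 to c5, at -1.16, -0.93, -1.09 and -1.81. Its profile over the 7 tables was the nearest of any member to that of Aldh1a1, with a root mean square difference of 0.65 (log2). The 21 pairs of members ran from 0.65 to 3.51. Rarb and Aldh1a1 were both at the limit of -4 in c6 and c7, so those tables added nothing to their difference. The widest pair, Aldh1a1 and Rara, stood at -4 and 2.89 in c6 and at -4 and 0.16 in c7.

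Rarg, encoding RARγ (chromosome 15, 102234938 to 102257517, minus strand), is the receptor whose loss in mice is known to lower HSC numbers. Its level was 0.129 per 10,000 in c1, 0.0951 in c2, 0.0619 in c3, 0.0325 in c4, 0.139 in c5 and 0.0288 in c6, and at most 0.00613 in c7. The levels were lower at each step from c1 through c2 and c3 to c4. Cluster c1 was called higher than the rest, at 0.77 in the authors' deposited table (adjusted p 5.11e-14), and higher than c2, at 0.45 (adjusted p 9.995e-06). Clusters c3 and c4 were called lower, at -0.73 and -1.69 in the authors' deposited tables. The level in c5, over 172 cells, was not called, at 0.52 in the authors' deposited table (adjusted p 0.571).

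Rara, encoding RARα (chromosome 11, 98927818 to 98974942, plus strand), had another pattern. It is the receptor fused to PML in human acute promyelocytic leukaemia, and it acts in granulocyte differentiation. Its level was 0.520 per 10,000 in c6 and 0.301 in c5, against 0.0732 in c1, 0.0768 in c2, 0.0529 in c3, 0.0214 in c4 and 0.0835 in c7. The log2 fold change of c1 over c2 in the authors' deposited table was -0.07 (adjusted p 0.696), which was not called. Against the rest, the authors' deposited tables had it at 2.09 in c5 (adjusted p 5.09e-05) and 2.89 in c6 (3.35e-05), and -1.91 in c4 (5.97e-09). Cluster c3 lay just inside the threshold, at -0.55 in the authors' deposited table (adjusted p 0.0499). Clusters c5 and c6 together had few cells, yet c5 held 6.66% and c6 7.01% of the Rara signal. Neutrophil markers were called higher for 5 of 5 in both clusters. Their summed level was at least 959 per 10,000 in c5 and at least 1040 in c6, against 32.3 to at most 49.1 elsewhere. All 5 were at the limit of 4 in both clusters, so these sums are lower bounds and do not rank c5 and c6. The part of such cells in the Rara result was not tested.

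The RXR genes, whose products pair with all 3 RARs, varied less over c1 to c5. Rxrb, encoding RXRβ (chromosome 17, 34031812 to 34038399, plus strand), had levels of 0.367 per 10,000 in c1, 0.429 in c2, 0.481 in c3, 0.465 in c4 and 0.421 in c5, with 0.171 in c6 and 0.323 in c7. The highest of c1 to c5 was 1.31-fold the lowest, where the same ratio was 14.0 for Rara. Small differences were called for Rxrb in the authors' deposited tables, at -0.26 in c1 (adjusted p 3.15e-07), 0.27 in c3 (0.00380), 0.20 in c4 (0.0433) and -0.23 in c1 against c2 (4.38e-05). The value in c4 was within 0.02 of the median of expressed genes there, which was 0.19. Cluster c6 was called lower, at -1.27 in the authors' deposited table (adjusted p 0.00396), but the median of expressed genes in c6 was -2.24, and relative to it Rxrb was 0.97 higher.

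Rxra, encoding RXRα (chromosome 2, 27676440 to 27762957, plus strand), was the one member under the median mean expression of all genes. Its level was 0.0436 per 10,000 in c1, 0.0529 in c2, 0.0385 in c3, 0.0272 in c4, 0.0284 in c5 and 0.0187 in c6, and at most 0.00274 in c7. Of the 8 authors' deposited tables, those of c2 at 0.44 (adjusted p 0.0164) and c4 at -0.74 (0.0360) called it. For c1 over c2 it was at -0.28 in the authors' deposited table and not called (adjusted p 0.120). Rxrg, the third RXR gene, had a log2 mean of -13.8 and was not called in any of the 8 tables.

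**Figure D2:**
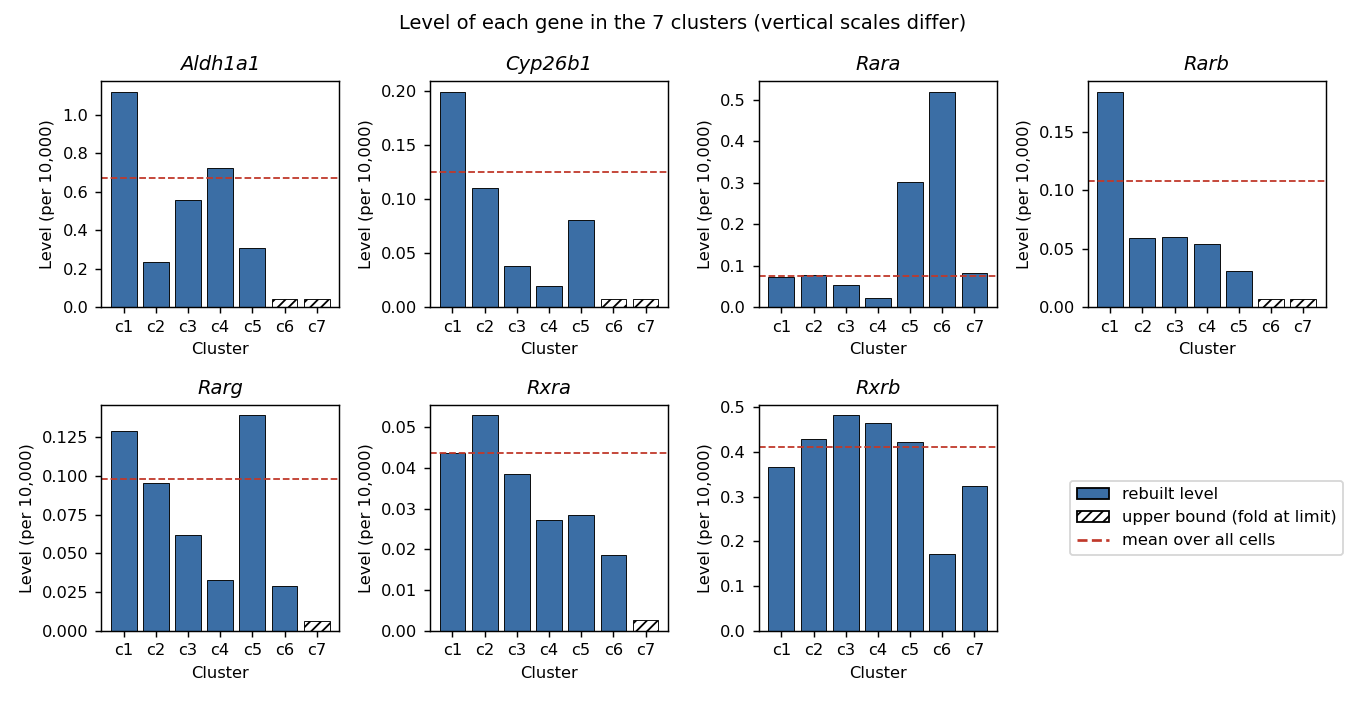
Rebuilt level of each gene in the 7 clusters, in values per 10,000, with the mean over all cells as a dashed line and hatched bars for upper bounds where the fold change was at its limit. Vertical scales differ between panels. Aldh1a1 and Rarb peak in c1 (1.12 and 0.184), Rara peaks in c6 (0.520), and Rxrb stays between 0.367 and 0.481 over c1 to c5.

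Counted together, 4 of the 7 members were called higher and 1 lower in c1 against the rest, where 13.3% of all genes were called higher and 29.7% lower. Their median log2 fold change was 0.77, beside -0.14 over all genes. Against c2 alone, c1 was again higher for 4 and lower for 1, with 15.4% and 22% of all genes called so, and the median was 0.45 beside -0.03. The 4 were Aldh1a1, Rarb, Cyp26b1 and Rarg in both, and the 1 was Rxrb. In c2 against the rest 1 member was higher and 2 were lower, beside 15.9% and 21.4% of all genes.

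In c3 and c4 most members were called lower. In c3, 5 were called lower and 1 higher, beside 10.2% and 18.1% of all genes, with a median of -0.55 for the members and -0.04 for all genes. In c4, 5 were lower and 1 higher, beside 10.6% and 24.3%, with medians of -1.09 and 0.01. The markers of dividing cells were called higher for 5 of 5 in c4, at a summed level of at least 15.3 per 10,000. They were called higher for 3 of 5 in c3, at 6.24, and summed to at most 0.672 in c1 and 0.805 in c2. The sums in c1, c2 and c4 are bounds. Mki67 and Birc5 were at the limit of 4 in c4 and of -4 in c1 and c2. The megakaryocyte markers called higher in both had summed levels of 2.26 in c3 and 2.66 in c4, against 1.40 in c1 and 1.16 in c2. The erythroid markers were at 1.71 in c3 and 0.985 in c4, against 0.581 in c1 and 0.914 in c2. The part of these 3 marker lists in the values of the retinoic acid genes was not tested. The member called higher was Rxrb in both clusters.

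In c5, 1 member was higher and 2 were lower, beside 7.17% and 9.3% of all genes. In c6, 1 was higher and 4 were lower, but 35.7% of all genes were called lower there and 5.2% higher, and the median of all genes was at the limit of -4. In c7, with 37 cells, Aldh1a1 alone was called, lower, beside 5.16% of all genes called lower and 1.02% called higher. Values at -4 in c6 and c7 stand for a measured ratio of at least 16-fold, which includes genes not seen in the cluster. In c7, 5 members were there, 4 of them without a call, beside 11131 of all 20062 genes at that limit. The median of all genes in c7 was also -4, and 11375 genes were at the limit in c6.

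**Figure D3:**
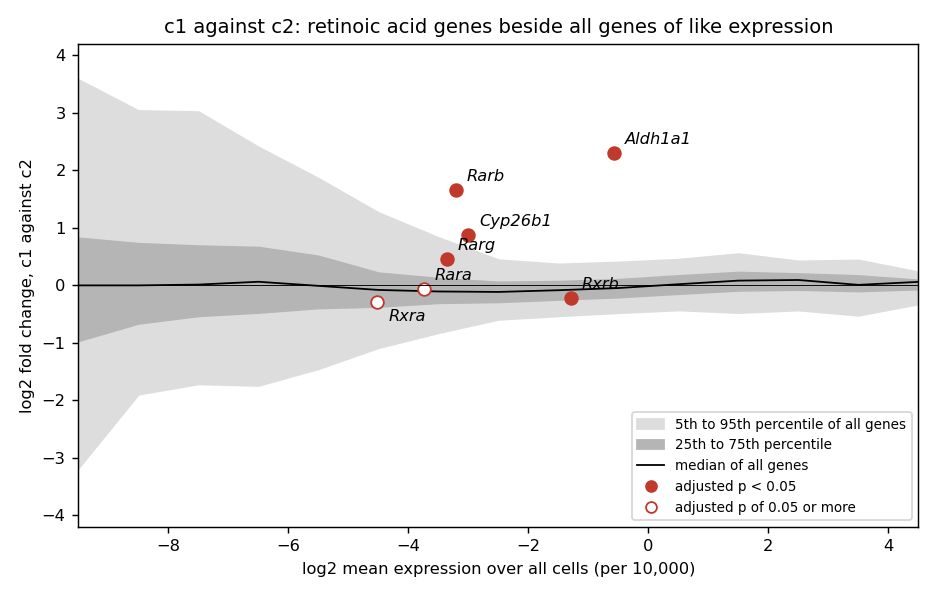
Log2 fold change of c1 against c2 over log2 mean expression per 10,000, with the 7 retinoic acid genes as points (filled where the adjusted p was under 0.05) and the spread of all genes in bins as grey bands. Aldh1a1 at 2.31, Rarb at 1.66 and Cyp26b1 at 0.88 lie above the paler band, and the RXR genes lie inside it.

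The comparison of c1 with c2 carried other differences beside the retinoic acid genes. The X-inactivation gene Xist had a value of -4 in the authors' deposited table, and the Y-linked genes Eif2s3y, Ddx3y, Uty and Kdm5d were called higher in c1, at 1.03, 0.78, 0.64 and 0.36. Against the rest, Xist was at -4 in c1 and 3.22 in c2 in the authors' deposited tables. Eif2s3y, Ddx3y, Uty and Kdm5d were called higher in c1, at 0.87, 0.71, 0.58 and 0.37. In c2 Eif2s3y, Ddx3y and Uty were called lower, at -0.79, -0.56 and -0.46, and Kdm5d was not called. These genes were chosen after their values were known, and the labels state no sex. Cells of different animals, ages or libraries in c1 and c2 cannot be told apart from a difference between cell states. This holds for c1 against c2 and for each against the rest. Of the granulocyte-monocyte progenitor markers 4 of 5 were called higher in c1 over c2, at a summed level of 10.8 per 10,000. The sum in c2 was at most 4.86, since Ctsg was at the limit of -4 there. Prtn3 had the highest mean expression of the 5 (log2 mean 2.69) and made up most of these sums. In c1 against the rest, Prtn3 alone was called higher, at 1.54 in the authors' deposited table, and the other 4 were called lower. Of the markers of dividing cells 3 of 5 were called lower in c1 than in c2. Of the megakaryocyte markers 3 of 4 were called higher, at a summed level of 1.40 in c1 against 1.16 in c2. The stem cell markers were called higher for 3 of 7 and lower for 4 of 7, at summed levels of 15.4 in c1 and 17.8 in c2. Their part in the retinoic acid values was not tested.

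Other genes that handle retinoids were called about as often as genes at large. Of 26 listed, 24 were in the tables, and in c1 against c2 4 were called higher and 5 lower, beside 15.4% and 22% of all genes, with a median of 0.00 beside -0.03 over all genes. Dhrs3, which reduces retinaldehyde back to retinol and is itself induced by retinoic acid, was at 1.35 in the authors' deposited table (adjusted p 2.22e-50). Rdh10, which oxidises retinol to retinaldehyde, was at 0.75 (5.96e-13), and Bco1, which cleaves carotene, at 2.31 (0.0230) in the authors' deposited table, the latter on a very low mean. Among the lower genes was the fatty acid binding protein gene Fabp5, whose product can carry retinoic acid, at -0.23 (adjusted p 8.74e-05) in the authors' deposited table. Adh5, an alcohol dehydrogenase gene named after its value was seen, was the other one called higher, at 0.08 in the authors' deposited table. The retinol dehydrogenase genes Rdh11 and Rdh12 were at -0.39 and -0.46 in the authors' deposited table. Aldh1a7, a close paralog of Aldh1a1 in mouse, was at -2.37 (adjusted p 0.0223) in the authors' deposited table, opposite to Aldh1a1. Its mean was very low, and the sources used here do not say how reads shared by the paralogs were counted. The other retinaldehyde dehydrogenases Aldh1a2 and Aldh1a3 and the other CYP26 gene measured, Cyp26a1, were not called in any of the 8 tables.

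Of 10 genes known to respond to retinoic acid, c1 was called higher over c2 for 5 and lower for 0, beside 15.4% and 22% of all genes. The list had 12 genes, of which 10 were in the tables, its median was 0.24, and 3 of the 5 moved by more than 1 log2 unit. Tgm2, a transglutaminase, was at 1.01 (adjusted p 2.18e-144) and Cd38, an ectoenzyme that retinoic acid induces in human leukaemia cells, at 1.79 (1.94e-54) in the authors' deposited table. Rarres1, named in human as a retinoid-responsive gene, was at 2.13 (4.73e-06) in the authors' deposited table. Hoxb4 at 0.23 and Btg2 at 0.24 in the authors' deposited table were small changes (adjusted p 2.72e-05 and 0.0435). Cebpe, a granulocyte transcription factor, was at the limit of 4 in c5 and in c6 in the authors' deposited tables, the same clusters where Rara was high, and Btg2, which slows the cell cycle, was called higher there, at 2.10 and 3.42. Btg2 was also at the limit of 4 in c7 in the authors' deposited table (adjusted p 6.74e-06), where Rara was not called. In c1 against the rest, 5 of the 10 genes were called higher and 2 lower, beside 13.3% and 29.7% of all genes. Those lower were Btg2, at -0.38 in the authors' deposited table (adjusted p 0.00012), and Cebpe, at the limit of -4. Btg2 was thus higher in c1 than in c2 but lower in c1 than in the rest. Tgm2, Cd38 and Hoxb4 were all called lower in both c3 and c4. They were at -0.415, -1.26 and -0.71 in c3 and at -1.05, -1.71 and -0.24 in c4 in the authors' deposited tables.

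Of 12 genes for RXRγ and receptors that pair with RXR, 2 were higher and 2 lower in c1 against c2, beside 15.4% and 22% of all genes, so the share called was near the background. Their median was 0.08. Nr1h3, the oxysterol receptor LXRα, was at 1.31 (adjusted p 3.06e-10) and the orphan receptor gene Nr4a2 at 0.78 (5.12e-06) in the authors' deposited table. The thyroid hormone receptor gene Thra at -0.21 (3.06e-05) and the vitamin D receptor gene Vdr at -0.22 (0.0190) were lower in the authors' deposited table. Of 16 coregulator genes, 13 were lower in c1 than in c2 and 1 was higher, beside 22% and 15.4% of all genes, with a median of -0.27 where expressed genes had -0.07. Among them the p160 coactivator genes Ncoa2 and Ncoa1 were at -0.71 and -0.36, and the acetyltransferase genes Crebbp and Ep300 at -0.53 and -0.34 in the authors' deposited table. Ncoa6, Kat2b and Ncoa3 were at -0.33, -0.30 and -0.30 in the authors' deposited table. The gene that was higher, named after its value was seen, was the deacetylase gene Hdac3 at 0.16 in the authors' deposited table.

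**Figure D4:**
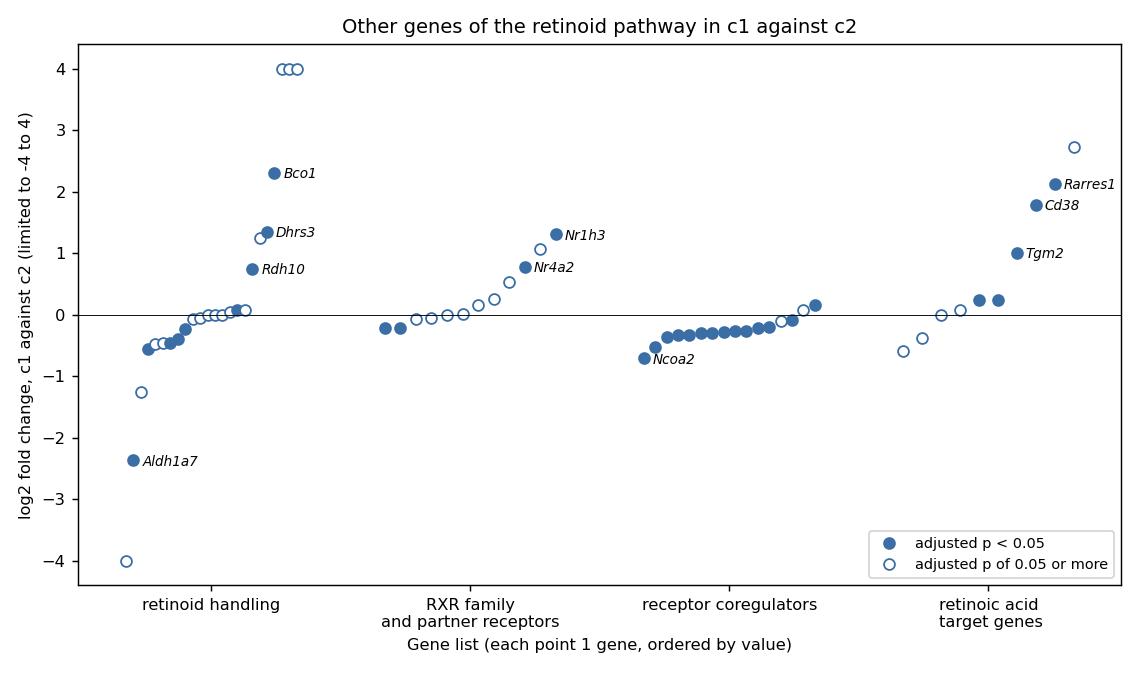
Log2 fold change of c1 against c2 for 4 lists of other retinoid pathway genes, each point a gene, ordered by value within its list and filled where the adjusted p was under 0.05. Named points are the called genes farthest from 0. Of the coregulators 13 of 16 are filled points below 0, and of the target genes all 5 filled points are above 0.

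The genes whose profiles over the 7 cluster tables were nearest to a member's were named by the smallest root mean square difference in log2 fold change, among 9599 candidate genes (9600 for Rxra). For Aldh1a1 they were Ptprk (0.20), Aspa (0.21) and Adgrg2 (0.28), and for Rarb Trim47 (0.23), Sfrp1 (0.23) and Clec1a (0.27). For Cyp26b1 they were Efna1 (0.26), Batf2 (0.42) and Procr (0.49), the last a surface marker of HSC. Rxrb had the nearest matches, Ano6 (0.11), Cstf3 (0.11) and Rnf121 (0.11), and Rxra had Plcb2 (0.20), Elac1 (0.21) and Eepd1 (0.21). Matches were looser for Rarg, with Tnfrsf1b (0.46), Slc37a1 (0.51) and Rom1 (0.51), and for Rara, with Pfkfb4 (0.53), Neu1 (0.54) and Tmem154 (0.54).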

How the data were processed

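The labels' protocols describe droplet single-cell RNA sequencing and SmartSeq2 of HSC and do not say which gave the tables. Scanpy, GSNAP, HTSeq and GRCm38.p4 are named in the submitters' processing notes, with no role stated. The authors deposited, per gene, log2 mean expression over all cells (2 raised to it sums to 10000), log2 fold change limited to -4 to 4, p-value and adjusted p-value (Benjamini-Hochberg over 20062 genes, equal to a recomputed adjustment within 4.44e-15). Mean expression was missing for 8 genes. No new test was made. A call is an adjusted p-value under 0.05.

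Numbers of cells were read from genes with a log2 mean under -10, where the p-value of a gene seen in 1 cell fixes the number, and all tables gave a total of 9585. The reading was tested on simulated data with Scanpy 1.11.5. Levels used shares of cells estimated from fold changes of 989 genes with a log2 mean between -5 and -3. Weighted, they exceeded the deposited mean by at most 2.56%. Expressed genes are the 10027 at or above the median log2 mean of -4.29. Positions are from GENCODE M21 and promoters from RefSeq GRCm38.p6.

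Members, lists and motifs were chosen with earlier results of these data known. The text names all members, the called genes of each list in c1 against c2 (the 8 largest where more were called) and the 3 genes nearest each member, leaving out predicted genes. Some list genes within this rule are left unreported. Other settings tried were stricter thresholds, minimum fold changes, other adjustments, centring and other shares. No source used here states the treatment of doublets or the filters on cells.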

Additional observations from a re-analysis of the deposited data

How the results depend on the processing

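An adjusted p under 0.01 left every count of called members or list genes within 1.5 times. Asking also for a log2 fold change of at least 0.5 in size, c1 against c2 kept 3 members, 5 retinoid handling genes, 2 partner receptors, 2 coregulators and 3 target genes. With a minimum of 1 it kept 2 members, and 3, 1, 0 and 3 genes of those lists, while c1 against the rest kept 3 members and c3 kept 1. With Bonferroni adjustment the members called were 2 in c3, 0 in c5, 1 in c6 and 0 in c7, and in c1 against c2 the lists had 5 handling, 2 partner, 8 coregulator and 3 target genes. Adjusted over expressed genes alone, 2 partner receptors were called, since only those genes were tested. Centring on the median of expressed genes, added after the data were seen for the cluster tables, turned the call of Rxrb in c6 to 0.97. No other called member changed sign, in any of the 8 tables. Levels moved by at most 0.989% under either other set of shares. No paired analysis was possible because the tables name no sample, and for the same reason no replicate could be left out. The depth per cell is unknown, so the precision of low genes is not known, and c7 rests on 37 cells.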

Other observations

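Coregulator genes of the nuclear receptors had opposite counts in the clusters. Of 16, 0 were called higher and 14 were called lower in c1 against the rest, beside 13.3% and 29.7% of all genes. In c2, 9 were higher and 2 lower, beside 15.9% and 21.4%, and in c4, 7 were higher and 0 lower, beside 24.3% and 10.6%. Their median log2 fold change was -0.26 in c1, 0.19 in c2 and 0.25 in c4, where that of expressed genes was -0.13, 0.00 and 0.19. Fabp5, whose product carries fatty acids and can carry retinoic acid, was called higher in c3 and c4, at log2 fold changes of 1.56 and 1.33 in the authors' deposited tables, and lower in c1 and c2, at -1.01 and -0.62. In c6, with 109 cells, 2 of 24 retinoid handling genes were called higher and 7 lower, beside 5.2% and 35.7% of all genes. The retinol dehydrogenase genes Rdh12 and Dhrs9 were the higher ones, at 2.88 and at the limit of 4 in the authors' deposited table. Related genes called lower there were Rdh10, Rdh13 and Dhrs4 at the limit of -4, Rdh14 at -2.87 and Dhrs3 at -1.75 in the authors' deposited table.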
